A study of Mus musculus with 18 samples.

Results

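The mouse retinoid handling genes described here are Rbp4, Stra6, Crabp1, Crabp2, Aldh1a2, Dhrs3, Cyp26a1, Rarb and Rarg, 9 of the 25239 gene symbols in the deposited count table. They were chosen by symbol, with earlier results of these data known. All 9 were in the table and all 9 passed the filter on low counts that left 17545 genes. The study followed mouse cells from primed to naive pluripotency in 18 RNA libraries, 3 in each of 6 groups. The start of the course (day 0) is EpiSC, whose label reads primed stem cell. Cells taken on days 3, 5 and 8 form the groups D3, D5 and D8, with the label transient. The end of the course is rES, with the label naive stem cell, and mESC, here ESC, are embryonic stem cells set beside it. No allele, transgene or agent is named for any group, and neither are strain, sex, clone, medium or feeder cells. Nothing states that replicates of a group came from different cultures, so the tests weigh differences against the spread of libraries that may be technical repeats.

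Retinol, the alcohol form of vitamin A, travels in plasma on the carrier RBP4 and enters cells through the membrane receptor STRA6. Inside the cell it is oxidised to retinal and then, by enzymes such as ALDH1A2, to retinoic acid, while DHRS3 turns retinal back into retinol and CYP26A1 degrades retinoic acid. The small proteins CRABP1 and CRABP2 bind retinoic acid in the cytosol. The nuclear receptors RARB and RARG, paired with an RXR, bind repeated hexamers in DNA and switch transcription when they bind retinoic acid. The pathway is best known for driving pluripotent cells out of self-renewal, and several of its own genes, Rarb and Cyp26a1 among them, are textbook targets of the receptors.

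The libraries held 58.4 to 101.6 M deposited counts (M for 1000000). Levels below are counts per 1000000 counts of the library (CPM), as mean ± SD of 3 libraries where a mean is given, and differences are log2 with an approximate standard error. Low counts bunched at 4 and 8, so 12 counts, 0.118 to 0.206 CPM, was taken as the floor of a library. In EpiSC, rES and ESC marker genes followed the labels. Of the naive markers, Zfp42 had no count in EpiSC and a mean of 322 CPM in ESC, Esrrb averaged 3.22 CPM in the first and 790.1 CPM in the second, and for Nanog these means were 40.5 and 1126 CPM. The primed marker Fgf5 averaged 63.6 CPM in EpiSC and 0.0872 CPM in ESC, and Otx2 84.4 and 4.97 CPM. In rES Zfp42, Esrrb and Nanog averaged 273, 691 and 855 CPM, and Fgf5 and Otx2 0.131 and 3.08 CPM. Nanog was lower at D3 than in EpiSC, at 4.38 CPM. The summed level of 8 naive markers differed between the D8 libraries, from 880 to 1660 CPM. Genes of other cell types were not level across the groups. The summed level of 11 trophoblast markers was 12.2 to 17.2 CPM in EpiSC, 1203 to 1293 CPM at D3, 694 to 736 CPM at D5, 506 to 629.7 CPM at D8, 18.5 to 20.2 CPM in rES and 23.3 to 26.7 CPM in ESC. The sum of 10 fibroblast markers was 44.0 to 59.5 CPM in EpiSC, 619 to 777 CPM at D3, 808 to 892 CPM at D5, 989.5 to 1686 CPM at D8, 32.6 to 36.0 CPM in rES and 153 to 195 CPM in ESC. Of 13 markers of primitive and visceral endoderm the sum was 7.48 to 9.45 CPM in EpiSC, 56.1 to 60.4 CPM at D3, 63.2 to 68.6 CPM at D5, 101.2 to 115.7 CPM at D8, 20.4 to 22.9 CPM in rES and 15.1 to 18.6 CPM in ESC. These sums were all highest on days 3 to 8. On those days 8 or 9 of the 9 retinoid genes differed from EpiSC, beside 64.2% to 76.8% of all genes tested. In rES and ESC, where the sums were lower than on those days, 6 and 5 differed, beside 69.4% and 67.3% of all genes. The fibroblast sum in ESC stayed above that in EpiSC. At D5, at D8, in rES and in ESC the counts of retinoid genes are near the shares of all genes. The part of these markers in the results below was not tested. In bulk RNA, fewer cells of a type and less RNA per cell cannot be told apart.

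By day 3 each of the 9 genes differed from EpiSC. With a library left out 8 or 9 were called, since Rbp4 lost its call in some of these fits. Of the 9 genes, 8 were higher at D3 and Rarg was lower (edgeR's quasi-likelihood test with Benjamini-Hochberg adjustment at 0.05), while 64.2% of all genes tested were called, 34.1% higher and 30.2% lower. The median log2 difference was 3.55 over the 9 genes and 0.00 over all genes. At D5 5 of the 9 were higher and 3 lower than in EpiSC, against 37.7% and 34.3% of all genes (72.0% in either direction). At D8 again 5 were higher and 3 lower, against 42.4% and 34.5% (76.8%). Medians over the 9 were 2.42 at D5 and 2.64 at D8, against 0.02 and 0.18 over all genes. In rES 5 were higher and 1 lower (31.9% and 37.5% of all genes, 69.4% in either direction), and in ESC 4 were higher and 1 lower (31.2% and 36.1%, 67.3%), with medians of 0.60 and 0.51 against -0.09 and -0.07. With 8 of 9 called at D5 and D8 against 72.0% and 76.8%, 6 in rES and 5 in ESC, these counts are near the background, and the genes are described singly below. All of these comparisons share the EpiSC libraries. Neighbours in the order of a gene's levels are also compared below. In the pairs of groups that this adds, 67.5% of all genes were called for D8 against D3, 70.3% and 70.0% for rES and ESC against D3, 75.0% and 73.6% for rES and ESC against D5, and 71.1% for ESC against D8.

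**Figure D1:**
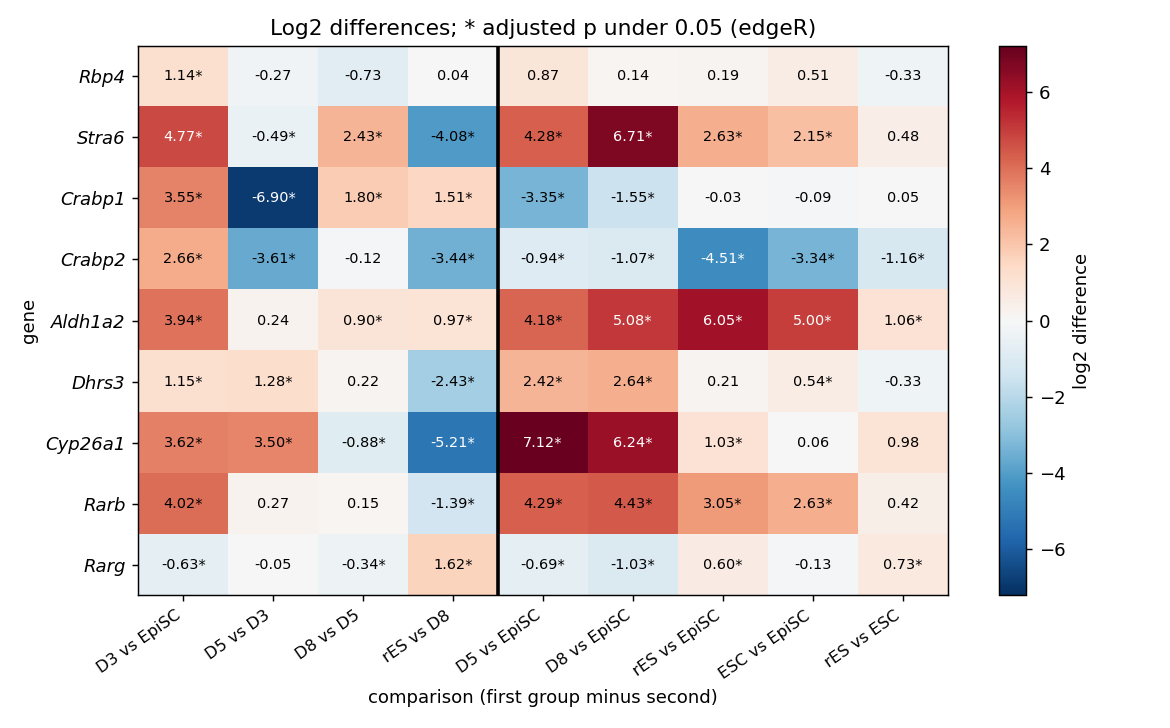
Log2 difference of each gene (rows, by role from carrier to receptors) in each comparison (columns, first group minus second), with an asterisk where the adjusted p was under 0.05. The column of D3 against EpiSC has an asterisk in all 9 rows, Crabp1 and Crabp2 turn from 3.55 and 2.66 there to -6.90 and -3.61 in D5 against D3, and values of Cyp26a1 between EpiSC, rES and ESC compare groups at or near the floor.

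Rbp4 (chr19:38116629-38125281, GRCm38, minus strand) was low throughout. Its 18 libraries ranged from 0.375 to 1.46 CPM, with 1.32 ± 0.137 CPM at D3 and 0.557 ± 0.109 CPM in EpiSC as the highest and lowest group means. The D3 libraries, 1.18, 1.33 and 1.46 CPM, all lay above the EpiSC libraries, 0.452, 0.548 and 0.669 CPM, and the difference was called (log2 1.14 ± 0.41, adjusted p = 0.0226). That call was lost without EpiSC replicate 1 or 2 or D3 replicate 3 (adjusted p = 0.0748, 0.0525 and 0.0587, in a range of 0.00488 to 0.0748 over 12 alternatives). No neighbours in the order D3, D5, ESC, rES, D8, EpiSC differed (adjusted p of 0.437 to 0.932). Ttr, the plasma partner of RBP4, had no count in 5 groups and 0.391 CPM at D8.

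Stra6 (chr9:58063788-58153996, plus strand), the retinol receptor, stood lowest in EpiSC, with 0.501, 0.517 and 0.350 CPM. It rose to 12.2, 14.2 and 15.1 CPM at D3 (log2 4.77 ± 0.22, adjusted p = 2.88e-12). The D8 libraries were the highest of all, at 60.4, 46.9 and 41.7 CPM. No D8 library overlapped another group, and against EpiSC the D8 difference was 6.71 ± 0.24 (adjusted p = 2.22e-14). Between those days the D5 libraries lay at 10.2, 8.39 and 8.95 CPM, below the D3 libraries (log2 -0.49 ± 0.18, adjusted p = 0.0228). This small fall lost its call without D3 replicate 2 or 3 or D5 replicate 2 or 3 (adjusted p = 0.0575, 0.0851, 0.0834 and 0.0617, in a range of 0.00888 to 0.0851 over 12 alternatives). From D8 to rES Stra6 fell by 4.08 ± 0.20 on the log2 scale (adjusted p = 2.48e-12), to 3.08, 2.86 and 3.35 CPM, and the ESC libraries held 2.30, 2.63 and 1.60 CPM. Both end states stayed above EpiSC (log2 2.63 ± 0.22 in rES and 2.15 ± 0.22 in ESC, adjusted p = 6.2e-09 and 1.23e-07). In the order D8, D3, D5, rES, ESC, EpiSC every neighbouring step was called except rES and ESC (adjusted p = 0.0599).

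**Figure D2:**
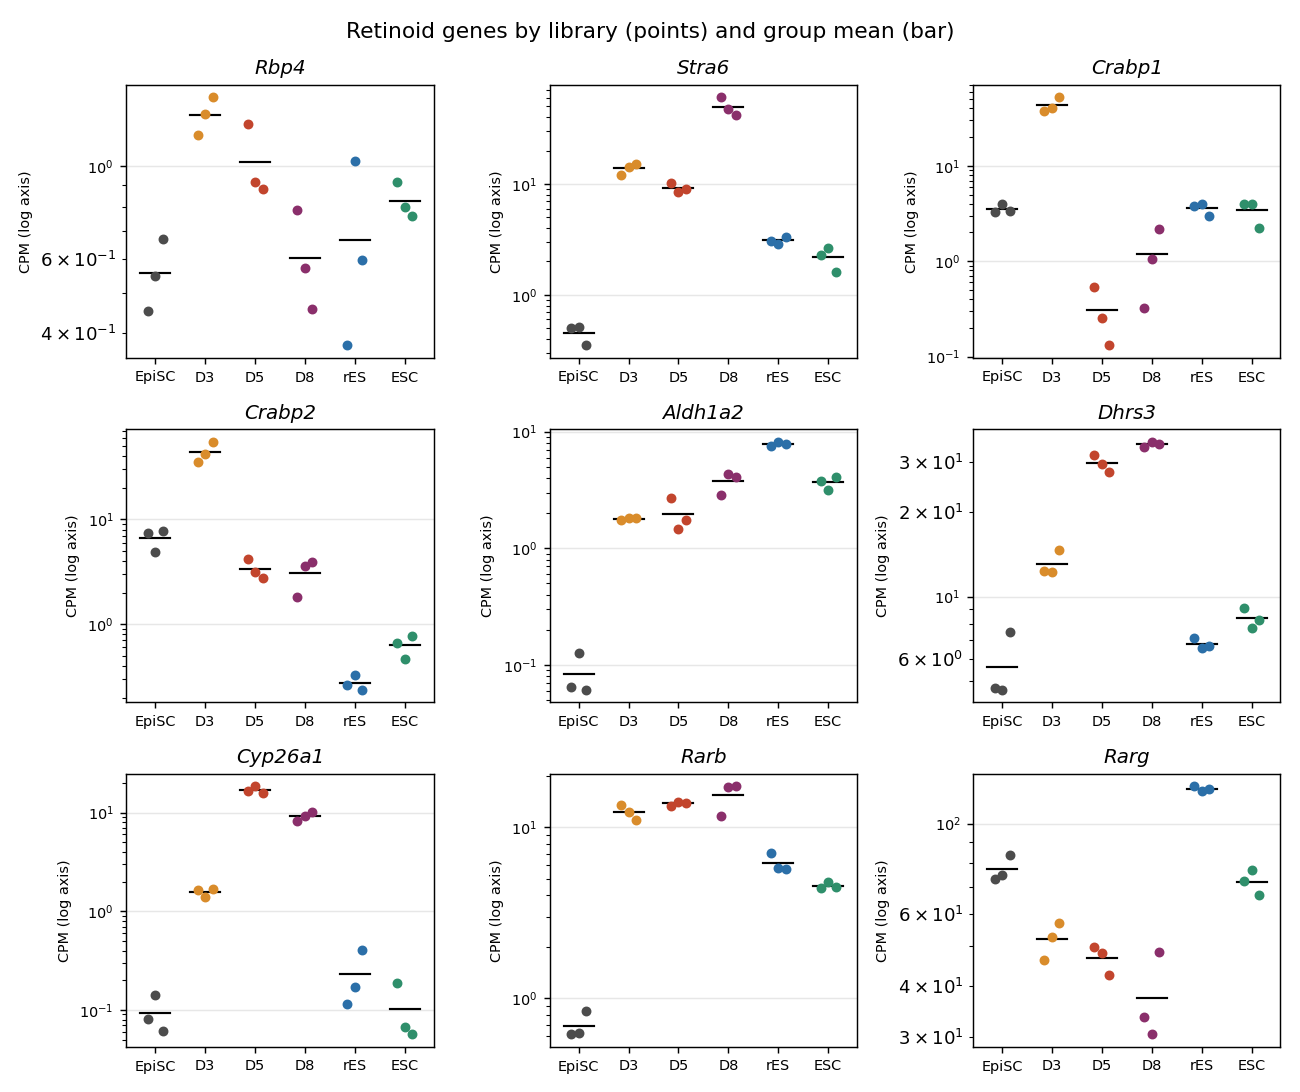
CPM on a log axis for each gene, with a point per library and a bar at the group mean, groups in order of the transition followed by ESC. Stra6 peaks at D8 with libraries of 41.7 to 60.4 CPM, Crabp1 and Crabp2 peak at D3, Cyp26a1 peaks at D5, and Rarg is highest in rES at 120.2 to 123 CPM.

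The retinoic acid binding proteins had a peak at D3 and then parted. Crabp1 (chr9:54764748-54773110, plus strand) held 3.26, 3.93 and 3.38 CPM in EpiSC and 37.3, 40.7 and 52.3 CPM at D3 (log2 3.55 ± 0.42, adjusted p = 6.34e-07). Crabp2 (chr3:87948666-87953376, plus strand) held 7.38, 4.84 and 7.68 CPM in EpiSC and 35.2, 41.8 and 54.8 CPM at D3 (log2 2.66 ± 0.26, adjusted p = 7.43e-08). For both genes the D3 libraries were above all other libraries of the series, and D3 replicate 3 was the highest.

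By D5 Crabp1 was at 0.537, 0.253 and 0.131 CPM, the lowest of its 6 groups. The fall from D3 (log2 -6.90 ± 0.52, adjusted p = 2.6e-09) was the largest fitted step of the 9 genes between successive groups from EpiSC to rES. The D5 libraries hold 35, 16 and 8 counts, the last under the floor, and without D5 replicate 1 the fall was larger (log2 -7.52). At D8 its libraries spread from 0.323 to 2.16 CPM, with 1.06 CPM between, and overlapped D5. The D8 rise over D5 (log2 1.80 ± 0.49, adjusted p = 0.00547) missed the threshold when those groups were fitted alone (adjusted p = 0.0570, in a range of 0.000123 to 0.0570 over 12 alternatives), and was log2 2.42 without D5 replicate 1 and 1.16 without D8 replicate 3. Crabp1 was then near its level in EpiSC, with 3.59 ± 0.562 CPM in rES, 3.40 ± 1.00 CPM in ESC and 3.52 ± 0.357 CPM in EpiSC, 3 groups whose libraries overlapped (adjusted p = 0.963 for rES and 0.877 for ESC against EpiSC). Crabp2 fell less from D3 to D5, to 4.14, 3.12 and 2.76 CPM (log2 -3.61 ± 0.28, adjusted p = 3.88e-09), and held 1.82, 3.56 and 3.92 CPM at D8, overlapping D5 (adjusted p = 0.742 for the step). Unlike Crabp1 it was lower in both end states than at the start, at 0.261, 0.325 and 0.236 CPM in rES and 0.661, 0.466 and 0.776 CPM in ESC (log2 -4.51 ± 0.33 and -3.34 ± 0.30 against EpiSC, adjusted p = 8.2e-10 and 1.47e-08). Whether the 2 genes differ from each other in these changes was not tested. D8 replicate 1 was the lowest D8 library for both genes and the highest for Stra6.

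Aldh1a2 (chr9:71215789-71296243, plus strand), which makes retinoic acid, was under the floor in EpiSC, with 4, 8 and 4 deposited counts. At D3 it stood at 1.75, 1.80 and 1.82 CPM, at D5 at 2.72, 1.46 and 1.76 CPM and at D8 at 2.88, 4.30 and 4.10 CPM. It was highest in rES, at 7.49, 8.18 and 7.86 CPM, above every other library, and ESC held 3.78, 3.18 and 4.07 CPM. Taking 4 deposited counts as 1 fragment, the ratio of rES to EpiSC was 93.8 (95% exact interval 36.3 to 346) and that of D3 to EpiSC 21.4 (8.05 to 80.3), intervals that cover counting error only. All 5 groups were called higher than EpiSC (adjusted p of 1.2e-11 to 3.4e-09), and rES was above both D8 (log2 0.97 ± 0.24, adjusted p = 0.00173) and ESC (log2 1.06 ± 0.25, adjusted p = 0.00286). D5 and D3, and D8 and ESC, did not differ beyond their spread (adjusted p = 0.423 and 0.770).

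Dhrs3 (chr4:144892827-144928209, plus strand), which returns retinal to retinol, rose through the transition and fell back. EpiSC libraries held 4.73, 4.67 and 7.50 CPM and D3 libraries 12.3, 12.3 and 14.7 CPM (log2 1.15 ± 0.15, adjusted p = 3.54e-06). D5 reached 31.8, 29.5 and 27.7 CPM (log2 1.28 ± 0.15 over D3, adjusted p = 9.57e-07) and D8 34.0, 35.4 and 34.8 CPM, not called above D5 (adjusted p = 0.245) although the libraries did not overlap. All D5 and D8 libraries lay above those of the other groups. In rES the level was 7.12, 6.59 and 6.68 CPM, a fall from D8 (log2 -2.43 ± 0.16, adjusted p = 1.46e-10), and in ESC 9.15, 7.76 and 8.24 CPM. ESC was called above EpiSC (log2 0.54 ± 0.15, adjusted p = 0.00520). The rES were not (log2 0.21 ± 0.16, adjusted p = 0.240), but passed with RLE scaling, with DESeq2 and without EpiSC replicate 3 (adjusted p = 0.0423, 0.0369 and 0.00233, in a range of 0.00233 to 0.664 over 12 alternatives). RLE scaling moved the median of all genes by 0.145 in rES and 0.111 in ESC against EpiSC on the log2 scale.

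Cyp26a1 (chr19:37697798-37701536, plus strand), the enzyme that degrades retinoic acid, was highest at D5 and D8 and under the floor in EpiSC and ESC. EpiSC libraries had 5, 9 and 4 deposited counts and ESC libraries 11, 4 and 4. D3 held 1.63, 1.39 and 1.67 CPM, D5 16.5, 18.4 and 15.6 CPM and D8 8.26, 9.32 and 10.1 CPM. No libraries of these 3 days overlapped one another, and D5 was highest. The ratio of D5 to EpiSC was 179 (95% exact interval 78.4 to 742) and that of D5 to ESC 168 (68.2 to 494), again with 4 counts as 1 fragment and counting error only. Without ESC replicate 1 the second ratio was 276. For the intervals, here and for Aldh1a2, fragments were rounded to whole numbers, while the ratios were not rounded. For Cyp26a1 this went down from 4.5 in EpiSC and up from 4.75 in ESC, which widened the gap between the upper ends. D5 was above D3 (log2 3.50 ± 0.31, adjusted p = 1.91e-08). D8 was below D5 (log2 -0.88 ± 0.27, adjusted p = 0.0137), a call lost without D5 replicate 2 (adjusted p = 0.0574, in a range of 9.67e-05 to 0.0574 over 12 alternatives). In rES the counts were 7, 10 and 26, a ratio of D8 to rES of 39.4 (21.3 to 77.5). Without rES replicate 3, which holds most of these counts, that ratio was 65.1. The call of rES above EpiSC (adjusted p = 0.0292) compares groups near the floor and was lost with counts divided by 4 (adjusted p = 0.125) and without EpiSC replicate 1 or 3 or rES replicate 3 (adjusted p = 0.0805, 0.104 and 0.339, in a range of 0.00449 to 0.339 over 11 alternatives), so no fold is given for it.

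Rarb (chr14:16430839-16819156, minus strand), the receptor that is itself a known retinoic acid target, was lowest in EpiSC at 0.614, 0.626 and 0.836 CPM. It rose at D3 to 13.4, 12.3 and 11.04 CPM (log2 4.02 ± 0.19, adjusted p = 2.36e-12) and stood at 13.3, 14.1 and 13.9 CPM at D5 and 11.6, 17.2 and 17.3 CPM at D8. Neither later step was called, and the libraries of these days overlapped (adjusted p = 0.148 and 0.471). Across both steps D8 was called above D3 (log2 0.41 ± 0.15, adjusted p = 0.0252). That call was lost with the groups fitted alone and without D3 replicate 2 or 3 or D8 replicate 2 or 3 (adjusted p = 0.0613, 0.0552, 0.0902, 0.119 and 0.0866, in a range of 0.00236 to 0.119 over 12 alternatives). In rES it fell from D8 to 7.10, 5.79 and 5.68 CPM (log2 -1.39 ± 0.16, adjusted p = 3.23e-07), and ESC held 4.40, 4.75 and 4.45 CPM. Both end states were above EpiSC by 3.05 ± 0.18 and 2.63 ± 0.18 on the log2 scale (adjusted p = 5.01e-11 and 4.23e-10). Of the 5265 exonic bases of Rarb, 1793 (34.1%) are shared with exons of Top2b on the opposite strand, and the strand setting of the counting is not given in the sources used here. Top2b, which encodes a DNA topoisomerase, was highest where Rarb was lowest, at 380.1 ± 23.3 CPM in EpiSC, and stood at 158 ± 13.3 CPM at D3, 139.7 ± 10.8 CPM at D5, 101 ± 9.87 CPM at D8, 119 ± 6.34 CPM in rES and 129 ± 6.34 CPM in ESC.

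The promoters of Cyp26a1 and Rarb are shown because both genes rose from EpiSC to the transient days and both windows hold the repeat that the receptors are known to bind. The windows run from 250 bases before to 50 after a RefSeq start (GRCm38.p6), on the gene's strand and 5′ to 3′, at chr19:37697558-37697857 for Cyp26a1 and chr14:16575427-16575726 (minus strand) for Rarb, and capitals mark the hexamers of the repeat.
Cyp26a1: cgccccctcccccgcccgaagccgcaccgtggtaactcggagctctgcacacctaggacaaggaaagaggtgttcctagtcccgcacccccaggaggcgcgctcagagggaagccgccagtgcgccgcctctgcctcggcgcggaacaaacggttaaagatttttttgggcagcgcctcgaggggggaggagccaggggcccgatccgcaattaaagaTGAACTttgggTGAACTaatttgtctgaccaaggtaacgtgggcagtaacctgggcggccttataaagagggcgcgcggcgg
Rarb: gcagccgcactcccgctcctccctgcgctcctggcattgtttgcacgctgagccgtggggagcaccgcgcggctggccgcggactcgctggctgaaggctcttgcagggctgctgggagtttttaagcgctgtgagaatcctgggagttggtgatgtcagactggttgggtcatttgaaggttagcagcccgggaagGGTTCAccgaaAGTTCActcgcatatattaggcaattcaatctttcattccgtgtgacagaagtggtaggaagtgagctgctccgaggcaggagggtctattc
The search took the hexamer AGGTCA or a variant of it (either AGTTCA or GGGTCA or else GGTTCA), followed in the same direction by any of these, with 5 bases between, on both strands. In Rarb the repeat reads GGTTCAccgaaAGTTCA and begins 53 bases before the start. In Cyp26a1 it lies on the other strand, where it reads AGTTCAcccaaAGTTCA, and spans 32 to 16 bases before the start. Both hold the hexamer AGTTCA after the 5 spacer bases. Such a repeat stood in 32 of 32817 windows of the same length (0.0975%), while a lone hexamer stood in 43.7%. RefSeq windows were matched for 8 of the 9 genes, 15 windows in all. None of the other 13 windows, those of Aldh1a2, Crabp1, Dhrs3, Rarg, Rbp4 and Stra6, held the repeat with 5, 2 or 1 bases between, spacings found in 0.0975%, 0.268% and 0.222% of windows. A match is a description of letters, not of binding, and Stra6 and Aldh1a2, which also rose, have none in these windows. The RefSeq start of the Rarb window lies within the span given above for the gene, not at its 5′ end. Counts per gene do not tell which start was used.

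Rarg (chr15:102234938-102257517, minus strand), the other receptor, was lower on the days when Rarb was highest. EpiSC held 73.3, 74.9 and 83.8 CPM, D3 46.4, 52.6 and 57.0 CPM, D5 49.9, 48.2 and 42.5 CPM and D8 33.5, 30.4 and 48.4 CPM. It was lower than in EpiSC on each of these days (log2 -0.63 ± 0.13, -0.69 ± 0.13 and -1.03 ± 0.13, adjusted p = 0.000244, 8.94e-05 and 7.59e-07), with no overlap. In rES it was highest, at 123, 120.2 and 121 CPM, above every other library (log2 1.62 ± 0.13 over D8, 0.60 ± 0.13 over EpiSC and 0.73 ± 0.13 over ESC, adjusted p = 2.31e-09, 0.000392 and 0.000236). ESC, at 72.3, 77.1 and 66.8 CPM, overlapped EpiSC (adjusted p = 0.364). The fall from D5 to D8 (log2 -0.34 ± 0.13, adjusted p = 0.0342) had overlapping libraries and was lost in 7 of 12 alternatives (adjusted p of 0.000453 to 0.186), among them without D5 replicate 1 (0.117) or 2 (0.0855) and without D8 replicate 1 (0.119) or 2 (0.186).

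Stra6, Crabp1 and Cyp26a1 were called at each step from EpiSC to rES. As given above, some alternatives lost the call of Stra6 from D3 to D5 and those of Crabp1 and Cyp26a1 from D5 to D8. From D3 to D5 Dhrs3 and Cyp26a1 rose and Crabp1, Crabp2 and Stra6 fell, 2 and 3 of 9 against 29.9% higher and 29.6% lower of all genes (59.5%). From D5 to D8 Stra6 rose most (log2 2.43 ± 0.18, adjusted p = 7.91e-09), Crabp1 and Aldh1a2 rose and Cyp26a1 and Rarg fell, 3 and 2 of 9 against 25.1% and 22.0% (47.1%). From D8 to rES 8 of 9 were called against 71.1% of all genes (32.7% higher, 38.4% lower). Stra6, Crabp2, Dhrs3, Cyp26a1 and Rarb fell, Crabp1, Aldh1a2 and Rarg rose, and Rbp4 did not pass (adjusted p = 0.932). The rES and ESC differed for 3 of the 9, against 33.5% of all genes (15.6% higher, 17.9% lower). Aldh1a2 and Rarg were higher in rES and Crabp2 lower (log2 -1.16 ± 0.35, adjusted p = 0.0160). The Crabp2 call was lost without rES replicate 1 or 3 or ESC replicate 3 and in 2 other alternatives (adjusted p of 0.0507, 0.0618 and 0.0782, in a range of 0.00352 to 0.0984 over 12). Rarb and Stra6 lay just outside the threshold (log2 0.42 ± 0.16 and 0.48 ± 0.19, adjusted p = 0.0506 and 0.0599), with no overlap between the groups.

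Per kilobase of exon, the scale on which genes can be compared, Rarg led in EpiSC, D5, rES and ESC, at 18.1, 10.998, 28.5 and 16.9 CPM per kb. At D3 Crabp1 and Crabp2 were above it, at 54.1 and 33.2 against 12.2 CPM per kb. At D8 Dhrs3 led with 11.9 CPM per kb, ahead of Rarg at 8.79, Stra6 at 8.52 and Cyp26a1 at 4.65 CPM per kb. Rarb stayed below Rarg in each group, nearest at D8 with 2.92 CPM per kb. Aldh1a2 was at 0.790 CPM per kb at D3, level with Cyp26a1 at 0.789, and in rES at 3.46 CPM per kb only Rarg and Crabp1 stood above it. These orders rest on annotated exon lengths, and no test was made between genes.

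**Figure D3:**
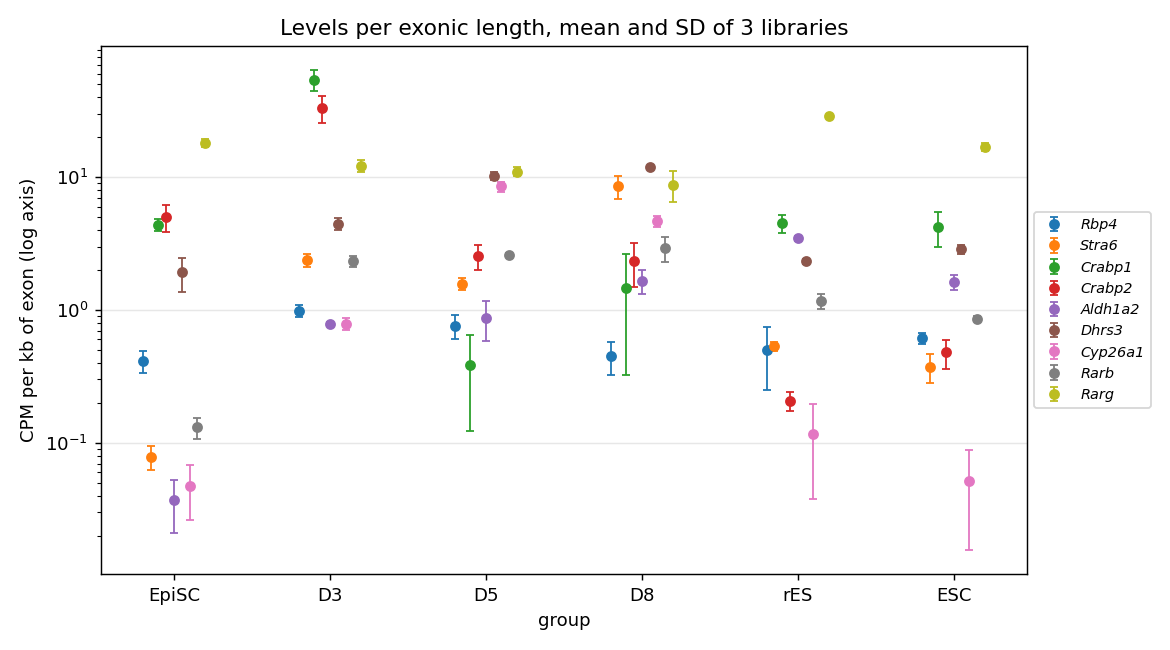
Level of each gene per kb of annotated exon, on a log axis, as mean and SD of 3 libraries in each group. At D3 the points of Crabp1 and Crabp2, 54.1 and 33.2 CPM per kb, stand above all others, whereas Rarg leads in rES at 28.5 CPM per kb.

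Other genes of retinoid transport and metabolism were listed, 30 in all, of which 26 were tested. Against EpiSC 13 were higher and 3 lower at D3, 13 and 3 at D5 and 15 and 4 at D8, with median log2 differences of 1.12, 1.52 and 1.98. In rES 10 were higher and 7 lower, and in ESC 7 and 7. Of all genes, 34.1% were higher and 30.2% lower at D3, 37.7% and 34.3% at D5, and 42.4% and 34.5% at D8. For rES these shares were 31.9% and 37.5%, and for ESC 31.2% and 36.1%. In either direction 64.2% of all genes were called at D3, 72.0% at D5, 76.8% at D8, 69.4% in rES and 67.3% in ESC. The share of this list called in either direction is near the background. At D3, D5 and D8 most called genes of the list were higher. The list was chosen with earlier results of these data known. Genes with no count in EpiSC, among them Adh1, Bco1 and Rdh16, could only be called higher against it. The split and the medians are therefore a description. Cyp26b1, a second enzyme that degrades retinoic acid, peaked earlier than Cyp26a1, at 59.2 ± 6.94 CPM at D3 against 0.0456 CPM in EpiSC (adjusted p = 3.33e-13), and stood at 12.3 ± 1.31 CPM at D5, 17.6 ± 1.74 CPM at D8 and 0.227 ± 0.0825 CPM in rES. Of the dehydrogenases that act on retinol, Dhrs9 rose to 29.1 ± 5.89 CPM at D8 from 0.0209 CPM in EpiSC (adjusted p = 4.71e-09), and Adh7 and Adh1 to 7.79 ± 2.71 and 5.07 ± 0.458 CPM from 0.0215 CPM and no count (adjusted p = 5.44e-08 and 2.83e-07). Cyp1b1, an oxidase that can act on retinol, reached 74.9 ± 0.633 CPM at D5 against 1.15 ± 0.169 CPM. Fabp5, which can carry retinoic acid, and Rdh11, a retinal reductase, were lower in rES than in EpiSC. Fabp5 went from 162 ± 20.6 to 15.3 ± 1.29 CPM and Rdh11 from 157 ± 6.24 to 22.4 ± 1.25 CPM (log2 -3.46 ± 0.15 and -2.86 ± 0.13, adjusted p = 7.72e-13 and 6.78e-13). At D3, D5 and D8 Fabp5 already stood at 75.8 ± 9.88, 69.1 ± 8.66 and 90.3 ± 12.9 CPM. Rdh11 stood at 86.0 ± 3.60, 91.5 ± 6.91 and 70.4 ± 14.6 CPM on those days. Lrp2, an endocytic receptor for retinol carriers among other ligands, was at 193 ± 24.2 CPM in EpiSC and 211 ± 16.3 CPM at D3. It was at 32.1 ± 1.40 CPM at D5, 21.7 ± 1.53 CPM at D8, 34.8 ± 2.79 CPM in rES and 33.5 ± 2.01 CPM in ESC (log2 -2.56 ± 0.10 for ESC against EpiSC).

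Rdh10 and Aldh1a3 were picked out after their values were seen. Rdh10, which oxidises retinol to retinal and is known to work in complex with DHRS3, averaged 10.1 ± 0.855 CPM in EpiSC, 27.9 ± 0.988 CPM at D3, 138 ± 3.58 CPM at D5, 156.7 ± 26.0 CPM at D8, 3.55 ± 0.114 CPM in rES and 2.89 ± 1.03 CPM in ESC. It was higher than EpiSC at D8 (log2 3.99 ± 0.19) and lower in rES (log2 -1.55 ± 0.18). Aldh1a3, another retinal dehydrogenase, was higher at D3, at 10.5 ± 0.343 against 0.697 ± 0.338 CPM (log2 3.79 ± 0.53, adjusted p = 5e-06), while at D8 it was at 0.889 ± 0.640 CPM (adjusted p = 0.497).

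Among 11 other receptors and coregulators, all tested, 8 were higher and 3 lower at D3, 7 and 2 at D5, D8 and rES, and 6 and 4 in ESC, against EpiSC (median log2 0.68, 1.02, 0.31, 0.30 and 0.47). The shares of all genes called higher and lower were 34.1% and 30.2% at D3, 37.7% and 34.3% at D5, 42.4% and 34.5% at D8, 31.9% and 37.5% in rES, and 31.2% and 36.1% in ESC. Rxra, the RXR partner of the receptors, rose from 34.2 ± 2.40 CPM to 109 ± 11.5 CPM at D3, 251 ± 18.01 CPM at D5 and 221 ± 20.4 CPM at D8 (log2 1.60 ± 0.10, 2.91 ± 0.10 and 2.72 ± 0.10), and was at 43.9 ± 1.05 CPM in rES (log2 0.30 ± 0.10). Rxrg went from 7.71 ± 0.485 CPM in EpiSC to 0.930 ± 0.547 CPM at D3 and no count at D5, D8 or in ESC. Nrip1, a corepressor of nuclear receptors that retinoic acid is known to induce, rose from 16.3 ± 1.19 to 211 ± 11.5 CPM at D8 (log2 3.72 ± 0.09, adjusted p = 1.5e-16), and the coactivator Ncoa3 rose to 287 ± 5.20 CPM in rES from 64.9 ± 5.89 CPM (log2 2.09 ± 0.10). Rara, named after its values were seen, was higher at D3, at 42.0 ± 3.14 against 28.1 ± 0.528 CPM, and lower at D5 and D8, at 11.7 ± 1.17 and 11.1 ± 1.81 CPM (log2 0.52 ± 0.10, -1.23 ± 0.10 and -1.31 ± 0.10). It was at 36.0 ± 1.86 CPM in rES and highest in ESC, at 49.4 ± 2.40 CPM. The rES were called above EpiSC (log2 0.30), a call lost without rES replicate 3.

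**Figure D4:**
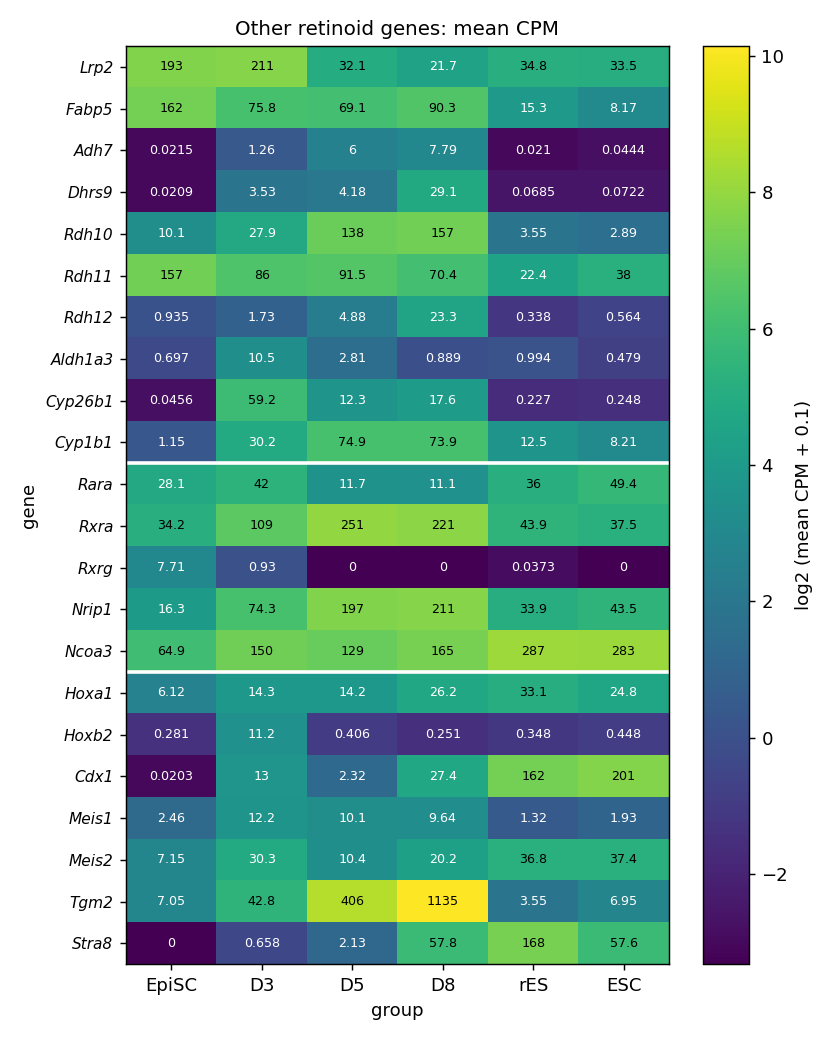
Mean CPM of listed genes, chosen for display after their values were seen, in the 6 groups: transport and metabolism above, receptors and coregulators in the middle, retinoic acid targets below. Colour is log2 of the mean CPM plus 0.1 and the printed figure is the mean. Rdh10, Rxra, Nrip1 and Tgm2 are highest at D5 or D8, Cyp26b1 and Hoxb2 at D3, and Cdx1 and Stra8 in the naive groups.

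Known retinoic acid target genes, 17 listed and all tested, gave 12 higher and 2 lower at D3, 11 and 3 at D5 and D8, 9 and 4 in rES and 9 and 2 in ESC, against EpiSC, where 34.1% of all genes were higher and 30.2% lower at D3, 37.7% and 34.3% at D5, 42.4% and 34.5% at D8, 31.9% and 37.5% in rES, and 31.2% and 36.1% in ESC. Their median log2 differences were 2.53, 2.06, 2.06, 1.64 and 1.504. The targets did not share a course. Tgm2, a transglutaminase, climbed from 7.05 ± 1.37 CPM to 406 ± 30.3 CPM at D5 and 1135 ± 136 CPM at D8 and was at 3.55 ± 0.214 CPM in rES. Hoxb2, a homeobox gene, was at 11.2 ± 0.659 CPM at D3 against 0.281 ± 0.123 CPM in EpiSC (adjusted p = 2.13e-07) and at 0.406 CPM at D5. Cdx1, a caudal homeobox factor, and Stra8, a gene of meiotic entry, were highest in the naive groups. Stra8 had no count in EpiSC, 0.658 ± 0.324 CPM at D3, 2.13 ± 0.364 CPM at D5, 57.8 ± 19.2 CPM at D8 and 168 ± 12.8 CPM in rES. Cdx1 did not climb at each step. It was at 0.0203 CPM in EpiSC and 13.0 ± 0.954 CPM at D3, fell to 2.32 ± 0.671 CPM at D5 (log2 -2.36 ± 0.26 against D3, adjusted p = 3.79e-07), and then stood at 27.4 ± 13.5 CPM at D8 and 162 ± 4.01 CPM in rES. Stra8 was higher in rES than in ESC, at 57.6 ± 2.59 CPM (log2 1.52 ± 0.20, adjusted p = 3.12e-05).

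The genes closest to each member over the 18 libraries, by Pearson correlation of log2 CPM, among 11067 or 11068 genes with at least 10 CPM in a group, are given as a description, since libraries of a group share most of their variation. Cyp26a1 was followed most closely by Nabp1, Rxra and Cstb (r = 0.988, 0.986 and 0.982). For Stra6 they were Cd63, Mfge8 and Cited1 (0.988, 0.979 and 0.975), for Dhrs3 Etv3, Myl4 and Brap (0.987, 0.987 and 0.985) and for Rarb B4galt5, Slc39a1 and Hspa1a (0.986, 0.984 and 0.982). Crabp1 was nearest to Adamts8, Igsf3 and Unc119b (0.969, 0.959 and 0.951) and Crabp2 to Serpinh1, Igfbp4 and Dgkh (0.983, 0.976 and 0.974). Aldh1a2 was nearest to Pip5k1b, Alpl and Ckb (0.987, 0.981 and 0.981), and Rarg to Cct3, Clpp and Wdr18 (0.973, 0.967 and 0.964). Rbp4 was too low for this search, and Rbp4 and Aldh1a2 were too low to be found by it. None of the other 7 members stood among another member's nearest 20 genes. Between members r was highest for Cyp26a1 with Dhrs3, at 0.942, and Stra6 with Rarb, at 0.904, and Rarg ran against Dhrs3 at -0.812.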

How the data were processed

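RNA of 18 mouse libraries in 6 groups of 3 was depleted of ribosomal RNA and sequenced as paired reads, per the labels' protocols. Per the submitters' processing notes, reads were handled with bcl2fastq, Trim Galore and HISAT2 on mm10, with no versions given. The authors deposited expected counts, whole numbers per gene symbol, not scaled between libraries. For the counting program, annotation and strand setting, the sources used here name none. The library kit digests the second cDNA strand, per the labels. Low counts bunched (a median of 157, 314.5, 105.5 and 163 genes with 3, 4, 5 and 8 counts), so 12 counts was taken as the floor.

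Counts were fitted in edgeR 4.0.16 (R 4.3.3, limma 3.58.1), all libraries in 1 fit without a replicate block, after filterByExpr and TMM scaling (factors 0.945 to 1.05), with the quasi-likelihood F test, prior count 2 and Benjamini-Hochberg adjustment over 17545 genes, threshold 0.05. Standard errors are the log2 difference over the square root of F. CPM divides by the library total. All 15 pairs of groups were tested. Alternatives were RLE scaling, no filter, DESeq2 1.42.0, 2 groups alone, a replicate block, counts divided by 4 and each library left out. The steps were tested on simulated data. Replicate numbers showed no pairing of libraries: over 45 same-number pairs the residuals correlated at -0.061 to 0.053, which does not exclude pairing. Positions and exon lengths came from GENCODE vM21 (GRCm38) and promoters from RefSeq on GRCm38.p6.

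The members, and the gene lists, were chosen with earlier results of these data known. Named genes were the 9 members in all groups, in each other retinoid list up to 4 called genes a comparison (all with EpiSC, and rES with ESC), taken by size of difference where some group averaged 5 CPM or more, and, for members reaching 5 CPM, the 3 most correlated genes among those reaching 10 CPM. Some of these genes stand only in the counts, and some are not reported here. Lists of other cell types were trophoblast, fibroblast and endoderm markers, given in the text. Of 9 neural progenitor markers the sum was 350.0 to 432 CPM in EpiSC and at most 77.7 CPM elsewhere, and of 8 primitive streak and mesoderm markers it was 4.10 to 28.2 CPM over all libraries.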

Additional observations from a re-analysis of the deposited data

How the results depend on the processing

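Over the 9 comparisons, the 81 differences of single members were recomputed under up to 12 alternative settings each, 970 values in all, of which 904 kept the direction and the side of the threshold, 25 lost a call, 16 gained one and 25 changed sign. Added after the data were seen, 108 results on other retinoid genes and further pairs of groups gave 1296 values, 1282 unchanged in this sense, 10 lost and 4 of changed sign. The number of members called in D8 against D5, 5, was 3 with those groups fitted alone and 3 to 5 with a library left out (3 without D5 replicate 2). In rES against ESC it was 3, and 5 with RLE scaling, 6 with DESeq2 and 2 to 4 with a library left out. There the other receptors and coregulators called went from 4 to 7 with 2 groups alone, and the metabolism and transport genes from 7 to between 4 and 7 with a library left out (4 without ESC replicate 3). Among the gains in rES against ESC, Rarb passed with RLE scaling, DESeq2, counts divided by 4 and 2 groups alone (adjusted p = 0.0314, 0.0183, 0.0442 and 0.0256), and Rbp4 passed in D5 against EpiSC with counts divided by 4 and DESeq2 (adjusted p = 0.0349 and 0.0306). Changes of sign were all in differences that were not called. For Crabp1 against EpiSC, rES gave 0.112 with RLE, 0.132 with 2 groups alone, 0.114 with DESeq2 and -0.108 to 0.0904 with a library left out, and ESC gave 0.025, 0.0457, 0.0277 and -0.216 to 0.138. With a library left out, Rbp4 ranged from -0.0723 to 0.316 in D8 and -0.234 to 0.460 in rES against EpiSC and from -0.377 to 0.317 in rES against D8, and Aldh1a3 from -0.258 to 0.778 in D8 and Cyp26a1 from -0.458 to 0.359 in ESC against EpiSC. Likewise Rarg ranged from -0.137 to 0.0305 and Aldh1a2 from -0.0583 to 0.423 in D5 against D3, Crabp2 from -0.288 to 0.131 in D8 against D5, Crabp1 from -0.170 to 0.183 and Rdh10 from -1e-04 to 0.451 in rES against ESC, and Aldh1a2 from -0.242 to 0.0301 in ESC against D8. The cause was not tested. With the replicate number as a block, 9 members were called in D3 against EpiSC. In D5 and D8 it was 8 and in rES 6, all as without the block, and no call of a named gene changed. Nothing states that the numbers pair libraries, and 7 of 18 libraries correlated best with those of their own number. Depth limits Cyp26a1 in EpiSC, rES and ESC, Aldh1a2 in EpiSC, Crabp1 at D5 and Crabp2 in rES, which have libraries at or near the floor. Without D8 replicate 3, the log2 difference of Crabp1 was -2.19 for D8 against EpiSC and 2.16 for rES against D8, and without D5 replicate 1 it was -3.97 for D5 against EpiSC.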

Other observations

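Outside the 9 genes, 29 symbols had a RefSeq start window with the hexamer repeat spaced by 5 bases, and 8 of them passed the filter on low counts. These were looked at after the windows of Rarb and Cyp26a1 were seen, and their values are a description. Against EpiSC, 2 of the 8 were higher and 1 lower at D3, 2 and 2 at D5 and 4 and 2 at D8, beside 34.1% and 30.2%, 37.7% and 34.3%, and 42.4% and 34.5% of all genes.

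Primitive and visceral endoderm is a tissue known for RBP4 and TTR. Of its 13 markers, 10 were higher than in EpiSC at D3, 9 at D5 and 10 at D8, beside 34.1%, 37.7% and 42.4% of all genes. None was called lower, beside 30.2%, 34.3% and 34.5% of all genes. Pdgfra was the highest of the 13 at D3 and D5, with 24.0 and 25.5 CPM, and Dab2 at D8, with 35.1 CPM. Afp and Apoa1, markers of its mature form, were at or below 0.244 and 0.108 CPM in every group. For the trophoblast and fibroblast markers the shares of all genes are the same. Of 11 trophoblast markers 9 were tested. All 9 were higher at D3 and 8 were higher at D5 and D8, where Eomes was lower. Prl3d1 had no count in any group and Tpbpa none outside D8. Of 10 fibroblast markers 9 were higher at D3 and none lower, 8 were higher and 2 lower at D5, and 8 higher and 1 lower at D8, where Thy1 was at 1.28 CPM against 10.4 CPM in EpiSC. Their part in the course of the retinoid genes was not tested.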
